A study of Mus musculus with 20 samples.

Results

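The mouse genome annotation holds 44 protein-coding genes whose symbol has the form of Col, a type number, the letter a and a chain number, and all 44 were among the 46078 genes counted in the brain libraries described here. They were divided by the kind of structure their chains build into 11 fibrillar collagens, 8 basement membrane collagens and 25 other collagens. The tissue came from wild type C57BL/6J mice of 18 months that had a DH stroke, in which a distal branch of the middle cerebral artery is closed and the animal then breathes air low in oxygen. The methods describe the mice as male. From 1 week after the stroke the mice were injected under the skin 3 times a week for 6 weeks with sterile PBS as vehicle or with 4 g/kg HPBCD, a ring of sugars that binds cholesterol. At 7 weeks the infarct itself was cut away, and the tissue next to it (peri-infarct) and the matching tissue of the other hemisphere (contralateral) were taken for bulk RNA sequencing. Every mouse had a stroke, so the contralateral libraries are not from uninjured brains. There were 5 libraries in each of 4 groups: vehicle contralateral, vehicle peri-infarct, HPBCD contralateral and HPBCD peri-infarct. The identifiers in the deposited names tie the 2 regions of 1 replicate number and treatment to 1 animal, so each treatment is represented by 5 mice.

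Collagens are secreted or membrane proteins whose chains wind around each other in a helix that needs glycine at a regular interval. Fibrillar collagens form the cables of connective tissue, type IV collagens form the sheet under endothelium and around the brain surface, and the smaller families decorate fibrils, form beaded filaments or sit in the cell membrane. Healthy brain tissue holds little fibrillar collagen outside the meninges and the walls of larger vessels, and a fibrotic scar rich in fibrillar collagen can form after an injury that reaches the brain surface.

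The repeat that gives these genes their helix is visible in their exons, and 1 exon is shown for each of 6 genes on which the results turn, both chains of type I and of the main type IV network among them. Each exon has 54 bases, begins in the reading frame and is read 5′ to 3′ on the coding strand of GRCm38, with capitals marking the codons of the form GGN (glycine), which recur every 9 bases.
Col1a1, exon 9 of 51, chr11:94940118-94940171, plus strand: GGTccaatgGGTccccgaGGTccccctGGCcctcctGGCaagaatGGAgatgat
Col1a2, exon 8 of 52, chr6:4515481-4515534, plus strand: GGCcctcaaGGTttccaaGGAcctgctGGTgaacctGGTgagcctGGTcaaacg
Col3a1, exon 6 of 51, chr1:45325360-45325413, plus strand: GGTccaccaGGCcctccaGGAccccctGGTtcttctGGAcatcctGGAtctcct
Col5a2, exon 6 of 54, chr1:45434892-45434945, minus strand: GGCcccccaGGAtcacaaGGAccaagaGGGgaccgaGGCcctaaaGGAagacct
Col4a1, exon 7 of 52, chr8:11245211-11245264, minus strand: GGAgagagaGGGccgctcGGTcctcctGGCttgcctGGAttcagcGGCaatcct
Col4a2, exon 17 of 48, chr8:11413979-11414032, plus strand: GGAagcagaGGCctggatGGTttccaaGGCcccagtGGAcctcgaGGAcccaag
The 6 exons were chosen for this pattern. Each is the first internal coding exon of its transcript with 54 bases, in frame, and a GGN codon at the repeat positions alone. The glycine codons are therefore set by the choice, and the letters between differ. Across the 627 internal coding exons of the 11 fibrillar genes, 83.9% had a length that is a multiple of 9 bases and 48.64% had exactly 54. In the 8 basement membrane genes these shares were 45.2% and 4.43%, in the 25 other collagens 57.6% and 15.93%, and in the remaining protein-coding genes 13.7% and 0.44%. The longest unbroken run of GGN codons at this spacing was 216 to 344 repeats in the fibrillar genes and 30 to 66 in the basement membrane genes, whose helix is interrupted. Within the fibrillar class, Col24a1 and Col27a1 stood apart with 216 and 217 repeats against a class median of 338.

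Gene counts per library were 14445021 to 22171627, and values below are CPM (counts scaled to a library of 1000000) after TMM scaling, a scaling that puts libraries on a common level. A count of 3, taken as the floor, equals 0.135 to 0.208 CPM. The labelled tissue was brain: summed neuron markers were 2308 to 10350 CPM. Marker sums also set single libraries apart. Striatal markers summed to 3294 CPM in vehicle contralateral replicate 1 against 188.7 to 278.8 CPM in the other 4 libraries of that group, choroid plexus markers to 649.6 CPM in HPBCD contralateral replicate 3 against 1.37 to 6.999 in the other 4, and the 10 fibroblast and meninges markers to 431.6 CPM in vehicle contralateral replicate 2 against 72.0 to 224.6. Counts of called collagens that use these 3 libraries are therefore also given without them. A further pair of libraries differed from their groups: ependymal markers summed to 34.4 CPM in vehicle contralateral replicate 3 against 4.09 to 11.95 in the other 4, and HPBCD contralateral replicate 4 had 9.5% of its reads outside features and 8.03% ambiguous, where the other 19 libraries had at most 5.86% and 4.16%. In peri-infarct tissue, choroid plexus markers summed to 673.2 CPM in HPBCD replicate 3 against 27.4 to 207.2 in the other 4. They summed to 80.2 CPM in vehicle replicate 1 against 6.03 to 30.8. Peri-infarct libraries were left out only 1 at a time. No gene in the tables checks the treatment, so the HPBCD groups are the libraries labelled HPBCD. In peri-infarct tissue the labels and the study's text point in opposite directions for some glial and neuronal genes, which could not be settled here. The direction of each treatment difference and interaction therefore rests on the labels alone. So does the treatment named in each comparison of regions. Gfap, the astrocyte filament gene, was higher by 1.03 on the log2 scale in the libraries labelled HPBCD without passing (adjusted p = 0.0552), and 5 of 6 neuron markers were lower.

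Ranked by level per length (CPM per kb of transcript, mean of 20 libraries), Col25a1, the precursor of the CLAC peptide found in amyloid plaques, came first at 17.7. It was followed by Col1a2 at 12.5, Col6a1 at 11.6 and Col6a2 at 8.25, then by Col11a2, Col4a2, Col1a1 and Col4a1 at 6.75, 6.61, 6.44 and 6.32. The place of Col25a1 depends on the length used: over its 12947 exonic bases, in place of the 2624 of the transcript, it had 3.59 and ranked 11, and Col6a1 came first at 10.8. Without length, Col1a2 had the highest mean, 66.6 CPM, and Col25a1 ranked 3 at 46.5. The order was not the same in all groups. Col25a1 ranked 1 in both contralateral groups and in vehicle peri-infarct tissue, whereas in the HPBCD peri-infarct libraries Col1a2 ranked 1, from 9 in vehicle contralateral. Col3a1 moved from rank 27 in vehicle contralateral to 17 in vehicle peri-infarct and 6 in HPBCD peri-infarct tissue. At the low end, Col10a1 was at or under 3 counts in 15 of 20 libraries and entered no test.

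Between peri-infarct and contralateral tissue of vehicle mice, 9 collagens rose and 2 fell of 39 tested, where 10.5% of all 15801 genes rose and 9.7% fell, 20.2% in all. The 9 were Col5a2 and Col27a1 of the fibrillar class, Col4a4, Col4a5 and Col4a6 of the basement membrane class, and Col8a1, Col9a3, Col16a1 and Col23a1 of the others, and the 2 that fell were Col19a1 and Col24a1. The median log2 change of the collagens was 0.55 beside 0.015 over all genes. Replicates did not overlap for 5 rising collagens and 1 falling one, against 6.23% and 7.42% of all genes. When each library was left out in turn, Col16a1, Col19a1, Col23a1, Col27a1 and Col4a6 were called in every fit and the other 6 were not, and the total ranged from 6 (without vehicle peri-infarct replicate 4 or vehicle contralateral replicate 5) to 14. Without the contralateral libraries that stand apart 8 collagens were called, 7 of them among the 11, with Col4a4, Col8a1, Col9a3 and Col24a1 lost and Col8a2 gained. Without vehicle contralateral replicate 3 it was 9. With the animal as a block it was 11, with Col4a4 and Col8a1 lost and Col5a3 and Col6a3 gained.

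In HPBCD mice the same comparison of regions gave 29 collagens that rose and 2 that fell of 41 tested, where 30.3% of all 16047 genes rose and 24.3% fell, 54.6% in all. Col6a5 and Col9a1 reached the filter's level (0.533 CPM) in no contralateral library and were tested only because they are high in peri-infarct tissue, so their rise is a description, and 27 of the other 39 rose. By class, 8 of 11 fibrillar, 7 of 7 tested basement membrane and 14 of 23 tested other collagens rose. The last count includes Col6a5 and Col9a1. The median log2 change of the collagens was 1.5 and that of all genes 0.032. Replicates did not overlap for 28 rising collagens, Col6a5 and Col9a1 among them, and 1 falling, against 22.5% and 20.5% of all genes. All 31 calls held when each library was left out in turn, and without the contralateral library that stands apart 32 were called, these 31 and Col17a1. The 10 that did not pass were Col5a1, Col6a4, Col6a6, Col7a1, Col11a1, Col17a1, Col20a1, Col22a1, Col25a1 and Col26a1, with log2 changes of -0.08 to 1.27. All 9 collagens that rose in vehicle mice were among the 29 of 41 that rose here. The like overlap over all genes was not counted, so this is a description.

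**Figure D1:**
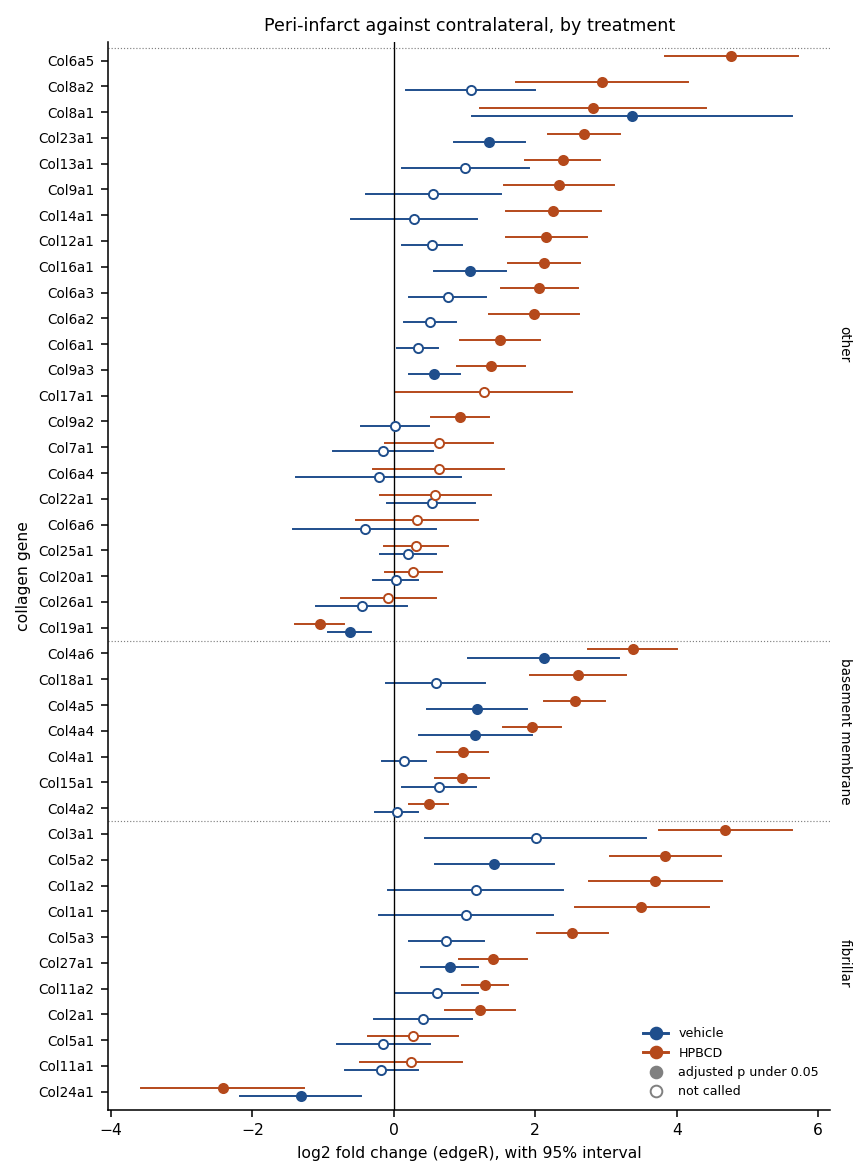
Log2 fold change of peri-infarct against contralateral tissue for each tested collagen (rows, by class) in vehicle (blue) and HPBCD (orange) libraries, with 95% intervals and filled points for an adjusted p under 0.05. Most orange points lie to the right of the blue point of the same gene, while Col24a1 and Col19a1 lie left of 0 in both treatments.

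The drug question was addressed by HPBCD against vehicle within each region. In peri-infarct tissue 22 collagens were higher in the libraries labelled HPBCD and 0 were lower, of 41 tested, where 12.4% of all 16224 genes were higher and 9% lower, 21.4% in all. They were 6 fibrillar, 5 basement membrane and 11 other collagens, and their direction holds only if the treatment labels do. The median log2 difference of the collagens was 0.86 beside 0.014 over all genes. Replicates did not overlap for 18 collagens that were higher and 0 that were lower, against 6.9% and 6.47% of all genes. Of the 22 calls, 15 were made in every fit with 1 library left out, and the total ranged from 15 to 26.

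In contralateral tissue 0 of 38 tested collagens differed between the treatments by edgeR, where 0% of all 15469 genes were called. By DESeq2 0 were called as well, and without the 3 contralateral libraries that stand apart the count was 0, with 4 at an unadjusted p under 0.05. With all libraries, at an unadjusted p under 0.05 there was 1 collagen by edgeR, 2 by DESeq2 and 1224 of all genes, with a smallest adjusted p of 0.236. The median log2 difference of the collagens was -0.13, and no collagen had replicates that did not overlap, against 0.931% and 0.504% of all genes in either direction. Single differences ranged from -0.90 (SE 0.46) for Col6a4 to 0.79 (SE 0.29) for Col8a1.

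The signed log2 change between regions was higher in HPBCD than in vehicle mice for 36 of the 39 collagens tested in both. Col19a1 and Col24a1, which fell further in HPBCD mice, are among the rest. The interaction, the signed change in HPBCD minus that in vehicle mice, was tested over all 20 libraries. It was called positive for 13 of 43 collagens and negative for 0, where 5.03% and 4.38% of all 16758 genes were called in these directions, 9.41% in all. A negative interaction can be a deeper fall in HPBCD mice. These directions hold only if the treatment labels do. The 13 were 4 fibrillar (Col1a1, Col1a2, Col5a2, Col5a3), 3 basement membrane (Col4a1, Col4a5, Col18a1) and 6 other collagens (Col6a1, Col6a2, Col6a3, Col12a1, Col14a1, Col23a1). The median interaction was 0.82 on the log2 scale beside 0.01 over all genes. This count depended on single libraries: it ranged from 4 to 20 with 1 library left out, and Col5a2, Col5a3, Col12a1 and Col18a1 were called in all 20 of those fits. Leaving out vehicle contralateral replicate 3 gave 8 calls, and leaving out HPBCD contralateral replicate 4 gave 6. With each animal as a block (10 animals) it was also 13, without Col4a5 and Col6a1 (adjusted p = 0.0597) and with Col3a1 and Col9a3. Without the 3 contralateral libraries that stand apart it was 2 (of 43 collagens), and the calls over all genes went from 843 positive and 734 negative to 59 and 19.

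**Figure D2:**
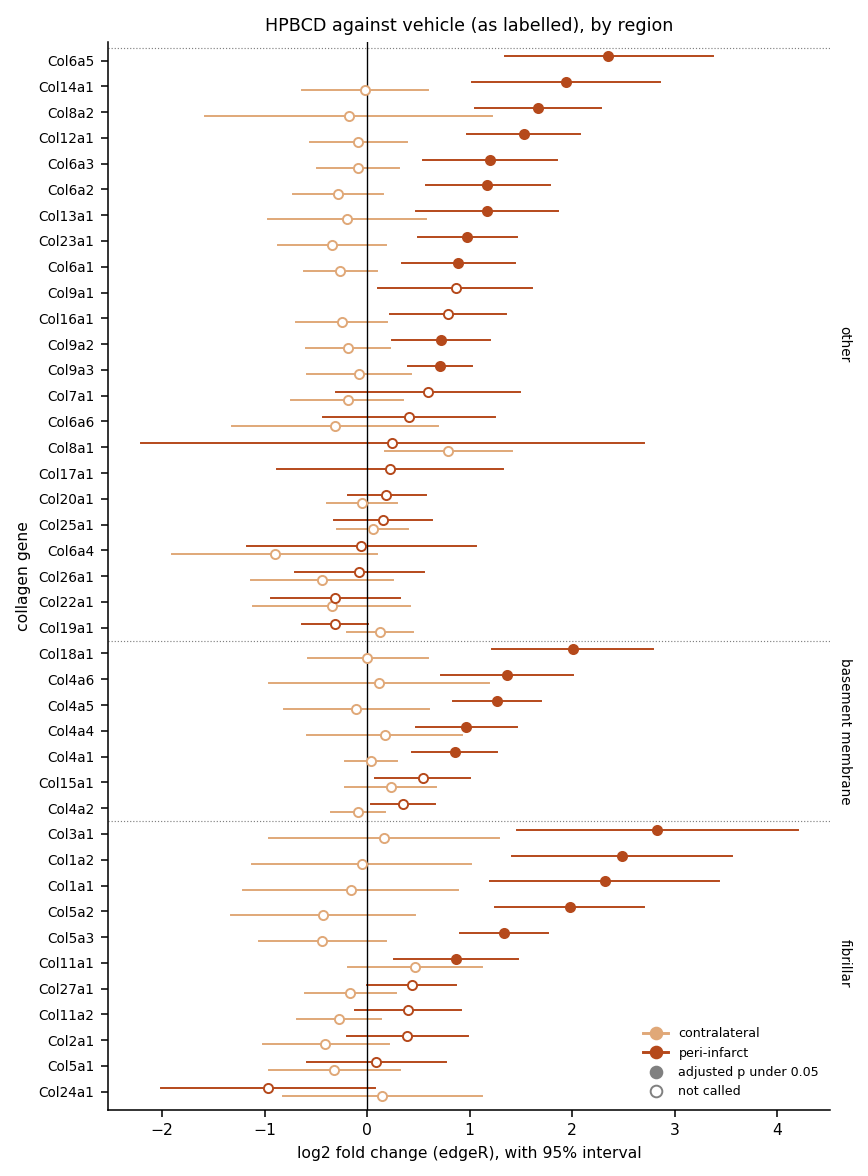
Log2 fold change of libraries labelled HPBCD against vehicle for each tested collagen (rows, by class) in contralateral (light orange) and peri-infarct (dark orange) tissue, with 95% intervals and filled points for an adjusted p under 0.05. No contralateral point is filled, and the 22 filled peri-infarct points all lie right of 0.

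Fibroblast and meninges markers moved with these results. In bulk tissue, more cells of a type and more RNA per cell cannot be told apart. The summed level of the 10 markers was 72.0 to 432 CPM in vehicle contralateral, 124 to 456 in vehicle peri-infarct, 86.4 to 333 in HPBCD contralateral and 576 to 1254 in HPBCD peri-infarct libraries. Of the 9 markers that entered the tests, 1 rose between regions in vehicle mice (10.5% of all genes), 9 rose in HPBCD mice (30.3% of all genes), 9 were higher in HPBCD peri-infarct tissue (12.4% of all genes) and 0 differed in contralateral tissue. Lum, a proteoglycan gene of fibroblasts, rose by 4.05 on the log2 scale in HPBCD mice, and Dcn, another, by 4.44. No marker of the list was at 0 in a whole group, and Dpt had a mean under 1 CPM in every group.

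Markers of other tissues are read against the shares of all genes called higher and lower, 30.3% and 24.3% between HPBCD regions, 10.5% and 9.7% between vehicle regions and 12.4% and 9% between treatments. Between the regions of HPBCD mice, 7 of 7 striatal and 5 of 5 ependymal markers rose, 6 of 6 neuron markers fell, 5 of 5 microglia and 5 of 5 oligodendrocyte markers rose, 4 of 8 pericyte, 4 of 6 astrocyte, 1 of 6 choroid plexus and 2 of 5 smooth muscle markers rose, and of 8 endothelial markers 1 rose and 1 fell. Of the ependymal markers, Ccdc153 and Tmem212 had at most 1 count in any HPBCD contralateral library and passed the filter through peri-infarct tissue alone, which fixed their direction. In vehicle mice 0 of 7 striatal, 2 of 4 ependymal, 5 of 5 microglia, 4 of 6 astrocyte, 0 of 4 smooth muscle, 0 of 5 oligodendrocyte, 1 of 8 pericyte, 0 of 3 choroid plexus and 0 of 8 endothelial markers rose and 3 of 6 neuron markers fell. The striatal sums of all 5 vehicle peri-infarct libraries, 313.5 to 1845 CPM, lay above those of the contralateral libraries other than replicate 1. Between the treatments in peri-infarct tissue, 3 of 5 ependymal, 3 of 6 choroid plexus, 3 of 8 pericyte, 2 of 5 smooth muscle, 1 of 5 oligodendrocyte, 1 of 6 astrocyte and 1 of 8 endothelial markers were higher, 0 of 7 striatal and 0 of 5 microglia markers differed and 5 of 6 neuron markers were lower. The part of these tissue differences in the collagen results was not tested.

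**Figure D3:**
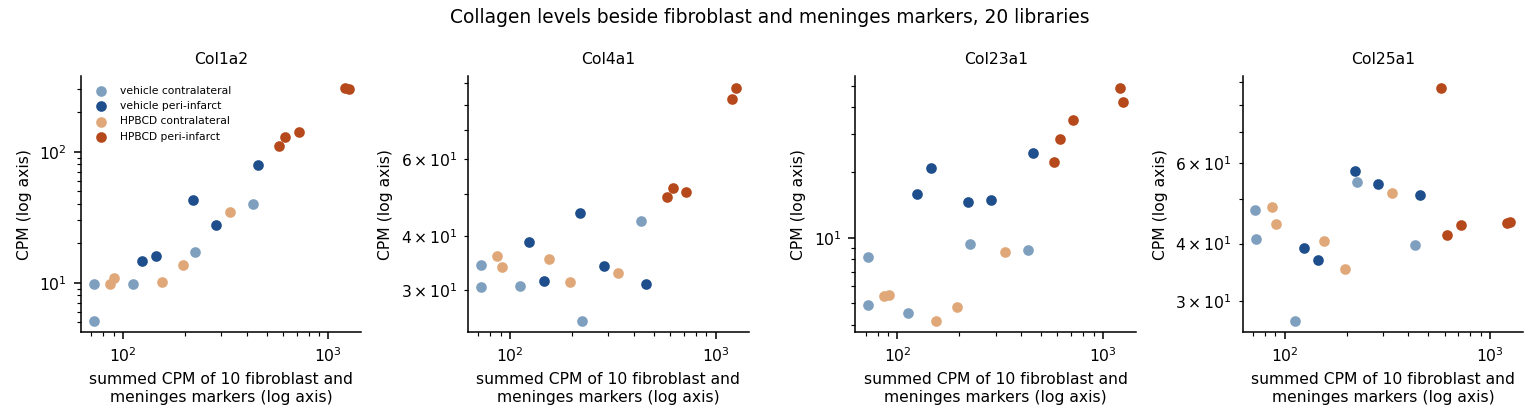
Level of 4 collagens (CPM, log axis) against the summed level of 10 fibroblast and meninges markers (CPM, log axis) in each of the 20 libraries, coloured by group. The 5 HPBCD peri-infarct libraries have the highest marker sums (576 to 1254 CPM) and the highest Col1a2 and Col4a1 levels, Col23a1 there overlaps the vehicle peri-infarct libraries, and Col25a1 overlaps in all groups.

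Among the fibrillar collagens, the 2 chains of type I, the main collagen of scar, bone and skin, passed the test between regions in HPBCD mice and not in vehicle mice. Col1a2 (chr6:4504814-4541544) had 5.14, 39.6, 9.76, 17.3 and 9.87 CPM in vehicle contralateral replicates 1 to 5 and 27.7, 14.7, 42.5, 78.5 and 16.03 in vehicle peri-infarct replicates. The HPBCD contralateral libraries had 13.8, 9.79, 34.7, 10.9 and 10.1 CPM and the HPBCD peri-infarct libraries 142, 111, 308, 302 and 129. The vehicle groups overlap, and every HPBCD peri-infarct library lies above every other library of the series. In the 3 groups other than HPBCD peri-infarct, the library highest in Col1a2 is also the highest in fibroblast and meninges markers. The change between regions was 1.16 (SE 0.57, adjusted p = 0.173) in vehicle and 3.70 (SE 0.43, adjusted p = 1.58e-05) in HPBCD mice on the log2 scale, the interaction was 2.54 (SE 0.76, adjusted p = 0.0416, called in 9 of 20 fits with a library left out), and the difference between treatments in peri-infarct tissue was 2.49 (SE 0.49, adjusted p = 0.0136).

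Col1a1 (chr11:94936224-94953042), the partner chain, had the same pattern at a lower level. Its values were 3.15, 25.0, 7.96, 12.1 and 7.38 CPM in vehicle contralateral, 17.8, 8.21, 26.3, 49.6 and 9.39 in vehicle peri-infarct, 10.4, 5.71, 20.3, 4.23 and 9.37 in HPBCD contralateral, and 84.3, 57.5, 166, 172 and 67.5 in HPBCD peri-infarct libraries. Only the last group is separate from the rest. The log2 change between regions was 1.02 (SE 0.56, adjusted p = 0.223) in vehicle and 3.50 (SE 0.44, adjusted p = 2.5e-05) in HPBCD mice, and HPBCD peri-infarct tissue was higher than vehicle by 2.32 (SE 0.51, adjusted p = 0.0166).

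Col3a1 (chr1:45311538-45349706), which co-assembles with type I collagen in early scar, had the largest treatment difference among the collagens. It had 0.719, 6.57, 1.27, 2.29 and 1.196 CPM in vehicle contralateral and 5.07, 3.10, 7.71, 28.04 and 3.75 in vehicle peri-infarct libraries. It had 2.54, 1.48, 4.96, 2.0 and 2.63 CPM in HPBCD contralateral and 58.8, 30.8, 109, 103 and 34.8 in HPBCD peri-infarct libraries. The lowest HPBCD peri-infarct value stands above the highest vehicle one, replicate 4, which is itself far from the other 4 vehicle libraries. The log2 change between regions was 2.004 (SE 0.72, adjusted p = 0.0682) in vehicle and 4.69 (SE 0.43, adjusted p = 2.73e-06) in HPBCD mice, and the treatment difference in peri-infarct tissue was 2.83 (SE 0.63, adjusted p = 0.0169). With 1 library left out this treatment difference was 2.58 to 3.80 and was called in 10 of 10 fits. The interaction of 2.67 (SE 0.90) missed the threshold, with an adjusted p of 0.0622 that became 0.0433 with each animal as a block. The gene shares 141 exonic bases with Gm47302 on the same strand, so its reads may be split.

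Col5a2 (chr1:45374321-45503282), a chain of the type V collagen that regulates fibril diameter, rose in both treatments. Its values were 1.72, 5.51, 1.69, 2.29 and 1.60 CPM in vehicle contralateral, 5.99, 4.44, 8.16, 10.9 and 4.36 in vehicle peri-infarct, 2.28, 1.22, 3.28, 0.769 and 1.94 in HPBCD contralateral, and 23.9, 14.5, 35.4, 39.8 and 18.0 in HPBCD peri-infarct libraries. In vehicle mice only contralateral replicate 2 reaches into the peri-infarct range. The log2 changes were 1.42 (SE 0.39, adjusted p = 0.0245) in vehicle and 3.83 (SE 0.36, adjusted p = 3.24e-06) in HPBCD mice, the interaction was 2.41 (SE 0.56, adjusted p = 0.0198) and the treatment difference 1.98 (SE 0.33, adjusted p = 0.0128). Col5a3, a further type V chain, rose by 2.52 in HPBCD mice and had an interaction of 1.77. Col5a1, the chain most often found with the product of Col5a2, did not pass in any comparison, with log2 changes of -0.15 (SE 0.30) in vehicle and 0.27 (SE 0.30) in HPBCD mice.

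The remaining fibrillar genes include those best known from cartilage. Col2a1, the main cartilage collagen, rose by 1.22 in HPBCD mice, at 0.928 to 4.24 CPM over the 20 libraries. Col11a2 had 38.4, 29.00, 30.1, 17.3 and 22.9 CPM in vehicle contralateral and 30.7, 29.5, 72.2, 41.7 and 33.2 in vehicle peri-infarct libraries, which overlap, with a log2 change of 0.60 (SE 0.27, adjusted p = 0.136). In HPBCD mice its 23.7, 22.6, 18.98, 19.6 and 29.2 CPM in contralateral and 54.5, 53.8, 41.9, 69.1 and 50.1 in peri-infarct libraries did not overlap, and it rose by 1.29 (SE 0.15, adjusted p = 1.24e-05). Col11a1 was called in 1 comparison alone, higher in HPBCD than in vehicle peri-infarct tissue by 0.87 (SE 0.28, adjusted p = 0.0465), a call made in 3 of the 10 fits with a library left out. Col27a1 rose by 0.79 in vehicle and by 1.40 in HPBCD mice.

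Col24a1 (chr3:145292472-145552011), a fibrillar collagen known from developing bone, went the other way. It had 4.09, 4.06, 3.80, 3.06 and 10.9 CPM in vehicle contralateral, 0.972, 1.96, 1.74, 2.23 and 3.37 in vehicle peri-infarct, 5.08, 6.63, 4.05, 1.46 and 11.48 in HPBCD contralateral, and 1.00, 0.251, 1.23, 2.18 and 0.559 in HPBCD peri-infarct libraries. Replicate 5 was the highest contralateral library in both treatments, and the groups overlapped in both. The gene fell by 1.32 (SE 0.39, adjusted p = 0.0329) in vehicle and by 2.42 (SE 0.53, adjusted p = 0.00192) in HPBCD mice, and the vehicle change was -0.84 with an adjusted p of 0.0906 without contralateral replicate 5. It was called in 4 of 10 fits with a library left out. The treatment difference in peri-infarct tissue, -0.97 (SE 0.48), did not pass (adjusted p = 0.154).

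**Figure D4:**
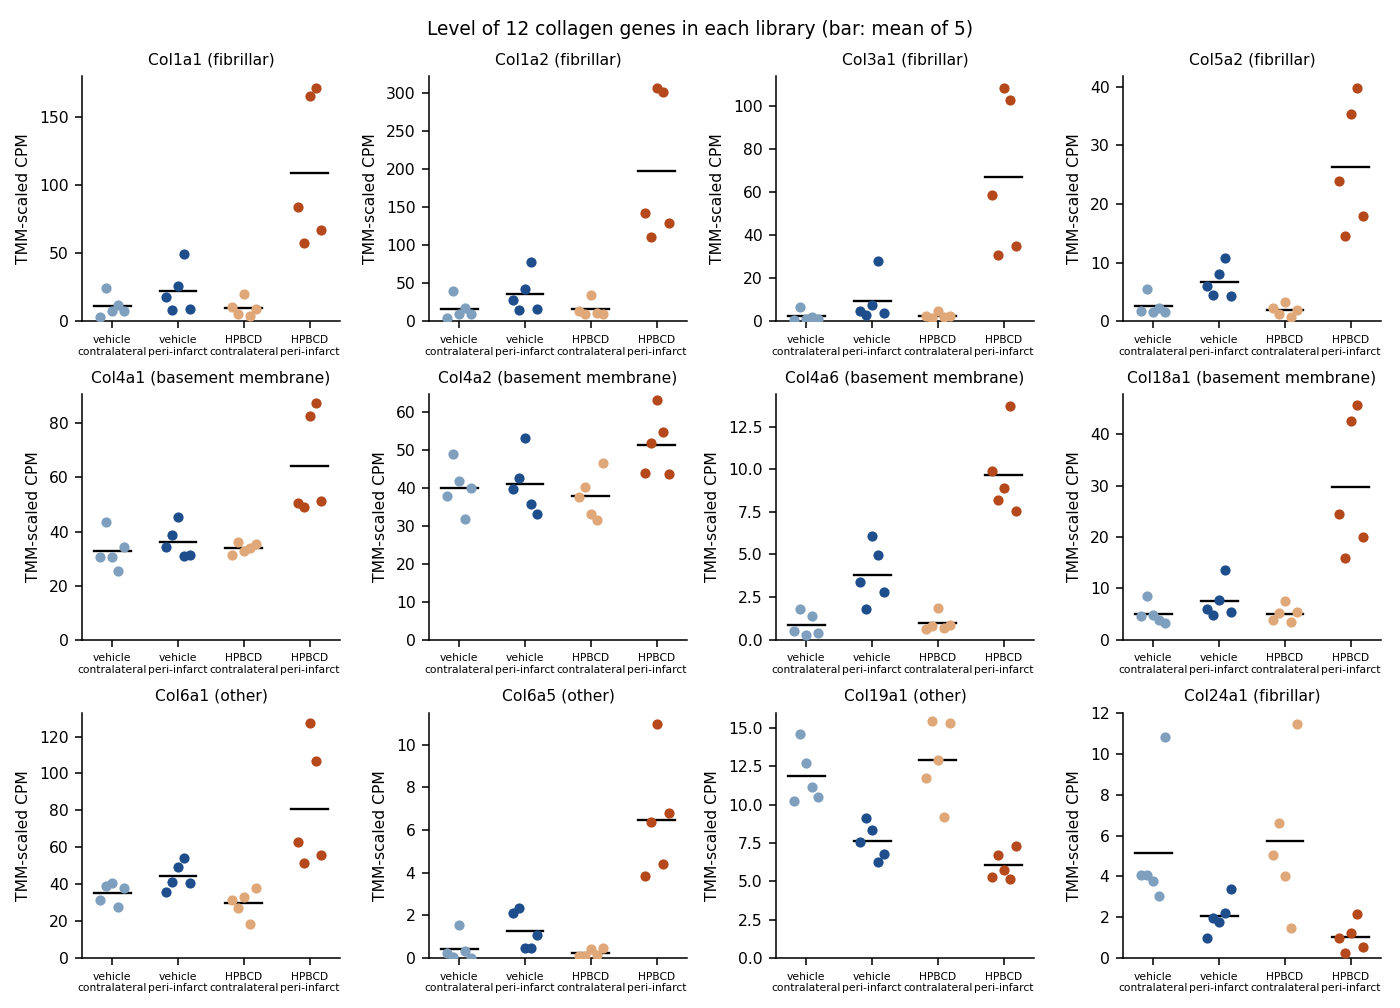
Level (TMM-scaled CPM, linear axes from 0) of 12 collagen genes in each library, by group, with a bar at the mean of 5. For Col1a1, Col1a2, Col3a1, Col5a2, Col4a1 and Col18a1 all 5 HPBCD peri-infarct libraries lie above all 15 others, and Col19a1 is lower in both peri-infarct groups.

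In the basement membrane class, both chains of the common type IV network rose between HPBCD regions, and the treatment difference passed for Col4a1 and missed the threshold for Col4a2. Col4a1 (chr8:11198423-11312826) had 30.6, 43.4, 30.6, 25.5 and 34.3 CPM in vehicle contralateral, 34.1, 38.6, 45.2, 31.0 and 31.5 in vehicle peri-infarct, 31.3, 36.0, 32.9, 33.8 and 35.4 in HPBCD contralateral, and 50.6, 49.2, 82.6, 87.6 and 51.5 in HPBCD peri-infarct libraries. The first 3 groups cover a like range and the fourth lies above it. The log2 change between regions was 0.15 (SE 0.15, adjusted p = 0.511) in vehicle and 0.97 (SE 0.17, adjusted p = 0.000303) in HPBCD mice, and the treatment difference in peri-infarct tissue was 0.86 (SE 0.19, adjusted p = 0.0169).

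Col4a2 (chr8:11312805-11449287) starts beside Col4a1 on the opposite strand. It had 37.9, 49.04, 41.8, 31.98 and 39.9 CPM in vehicle contralateral and 39.9, 42.6, 53.3, 35.9 and 33.2 in vehicle peri-infarct replicates 1 to 5. The HPBCD mice had 37.6, 40.2, 33.1, 31.7 and 46.5 CPM in contralateral and 44.1, 51.8, 63.2, 54.8 and 43.7 in peri-infarct libraries, so all 4 groups overlap. It rose by 0.50 (SE 0.13, adjusted p = 0.00556) between the regions of HPBCD mice, and its treatment difference of 0.35 (SE 0.14, adjusted p = 0.0935) missed the threshold. The first exons of both genes share 22 bases, chr8:11312805-11312826, plus strand: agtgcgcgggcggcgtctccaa. Where counting ignores strand, reads in these bases cannot be assigned to either gene.

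The X-linked pair Col4a5 and Col4a6, which form networks in smooth muscle and some epithelial basement membranes, rose in both treatments. Col4a6 was at 0.498, 1.78, 0.301, 1.42 and 0.399 CPM in vehicle contralateral and 3.38, 1.81, 6.07, 4.97 and 2.80 in vehicle peri-infarct libraries. It was at 0.609, 0.816, 1.88, 0.692 and 0.857 CPM in HPBCD contralateral and 9.90, 8.17, 8.88, 13.7 and 7.55 in HPBCD peri-infarct libraries. In each treatment the regions were separate, and HPBCD peri-infarct values stood above all vehicle values. Its log2 change was 2.12 (SE 0.49, adjusted p = 0.0126) in vehicle and 3.38 (SE 0.29, adjusted p = 1.72e-06) in HPBCD mice, and the treatment difference was 1.36 (SE 0.30, adjusted p = 0.0162). Col4a5 rose by 1.17 and 2.56 in these comparisons.

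Col4a4 and Col4a3, chains known from the glomerulus, were low, at means of 0.252 to 0.565 CPM for Col4a3, which passed the filter for the interaction alone. Col4a4 had means of 0.776 to 3.28 CPM, rising by 1.15 in vehicle (called in 2 of 10 fits with a library left out, and not with the replicate block) and by 1.95 in HPBCD mice. Of the multiplexins, whose C-terminal fragments include endostatin, Col18a1 rose by 2.60 (SE 0.32, adjusted p = 2.07e-05) in HPBCD mice and not detectably in vehicle mice, where the change was 0.59 (SE 0.32, adjusted p = 0.218). It had 4.65, 8.52, 4.76, 3.93 and 3.34 CPM in vehicle contralateral and 5.93, 4.85, 7.76, 13.7 and 5.31 in vehicle peri-infarct replicates 1 to 5. The HPBCD mice had 3.75, 5.2, 7.61, 3.38 and 5.43 CPM in contralateral and 24.6, 15.98, 42.6, 45.6 and 19.98 in peri-infarct libraries. Every HPBCD peri-infarct library was above the other 15, and the interaction was 1.999 (SE 0.48, adjusted p = 0.0212). Col15a1 rose by 0.96 in HPBCD mice.

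Of the other collagens, the beaded filament genes of type VI, which link cells to the surrounding matrix, rose in 4 of 6 cases in HPBCD mice (30.3% of all genes) and in 0 of 5 tested in vehicle mice (10.5% of all genes), where Col6a3 was called with the replicate block. The 4 include Col6a5, which entered the HPBCD test through peri-infarct tissue alone and was not tested between vehicle regions. Col6a1 had 31.2, 39.2, 40.4, 27.8 and 38.2 CPM in vehicle contralateral, 35.8, 41.4, 49.2, 54.2 and 40.8 in vehicle peri-infarct, 31.6, 27.1, 32.8, 18.4 and 37.9 in HPBCD contralateral, and 62.7, 51.3, 127.5, 106.5 and 55.7 in HPBCD peri-infarct libraries. Col6a2, its partner, had 15.5, 27.9, 18.1, 19.1 and 21.6 CPM in vehicle contralateral and 28.6, 22.9, 33.5, 35.8 and 23.7 in vehicle peri-infarct replicates 1 to 5. The HPBCD mice had 18.98, 13.7, 24.8, 11.1 and 15.7 CPM in contralateral and 47.3, 39.1, 103.7, 87.2 and 43.6 in peri-infarct libraries. For both genes the vehicle regions overlap and the HPBCD regions do not. In HPBCD mice they rose by 1.496 (SE 0.26, adjusted p = 0.00038) and 1.98 (SE 0.30, adjusted p = 0.000108), and Col6a3, the long chain of the same trimer, by 2.06.

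Col6a5 (chr9:105856078-105960643), an alternative to Col6a3 in the type VI trimer, had the largest fitted region change of the collagens, in a test it entered through HPBCD peri-infarct tissue alone. It was at 0.221, 0.0557, 1.57, 0.328 and 0 CPM in vehicle contralateral, 2.10, 2.32, 0.450, 0.464 and 1.09 in vehicle peri-infarct, 0.102, 0.102, 0.419, 0.154 and 0.457 in HPBCD contralateral, and 3.84, 6.36, 10.96, 4.41 and 6.80 in HPBCD peri-infarct libraries. In 2 vehicle and 3 HPBCD contralateral libraries it was at or under 3 counts, so the size of the fold change rests on few counts. It rose by 4.77 (SE 0.44, adjusted p = 2.5e-06) in HPBCD mice, was higher in HPBCD than in vehicle peri-infarct tissue by 2.35 (SE 0.46, adjusted p = 0.0134), and did not pass the count filter in the vehicle comparison of regions. Col6a4 and Col6a6 passed in no comparison.

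Of the 9 FACITs, collagens that attach to the surface of fibrils, 6 rose in HPBCD mice (30.3% of all genes) and 2, Col9a3 and Col16a1, in vehicle mice (10.5% of all genes). The 6 include Col9a1, which entered the HPBCD test through peri-infarct tissue alone, so its direction was fixed. Col16a1 rose from a mean of 11.47 ± 2.20 CPM (SD, n = 5) to 24.0 ± 8.85 in vehicle and from 9.67 ± 3.15 to 40.7 ± 12.1 in HPBCD mice. Col12a1, found with type I fibrils under load, went from 7.96 ± 1.73 to 11.46 ± 3.19 CPM in vehicle mice, which did not pass (adjusted p = 0.0737), and from 7.55 ± 2.69 to 32.6 ± 11.7 in HPBCD mice, which did (adjusted p = 2.42e-05), with an interaction of 1.61 (adjusted p = 0.017). Col14a1 rose by 2.26 in HPBCD mice and had an interaction of 1.96. Col9a3 overlaps Tcfl5 by 234 bases on the opposite strand, and its change is uncertain to that extent.

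Col19a1 (chr1:24261890-24587472), a FACIT made by hippocampal and cortical interneurons, fell in both treatments. It had 10.2, 14.6, 12.7, 11.2 and 10.5 CPM in vehicle contralateral, 7.57, 9.14, 8.38, 6.27 and 6.78 in vehicle peri-infarct, 11.8, 15.5, 12.9, 9.23 and 15.4 in HPBCD contralateral, and 5.31, 6.72, 5.71, 5.16 and 7.31 in HPBCD peri-infarct libraries. The regions do not overlap in either treatment. It fell by 0.63 (SE 0.14, adjusted p = 0.0108) in vehicle and by 1.05 (SE 0.16, adjusted p = 0.000137) in HPBCD mice. Neuron markers fell in the same comparisons, 3 of 6 in vehicle and 6 of 6 in HPBCD mice, and their part in this result was not tested. The treatment difference of -0.31 (SE 0.15) did not pass (adjusted p = 0.138).

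Among the short-chain collagens, Col8a1 and Col8a2 encode type VIII collagen, the hexagonal network made by vascular and corneal endothelium. Col8a1 stood at 205 CPM in vehicle peri-infarct replicate 3 and at 198 in HPBCD peri-infarct replicate 5, and at 2.93 to 26.5 in the other 18 libraries. It had 2.93, 7.07, 4.46, 4.31 and 4.49 CPM in vehicle contralateral and 8.34, 7.23, 204.7, 9.24 and 6.97 in vehicle peri-infarct replicates 1 to 5. The HPBCD mice had 4.62, 5.96, 12.2, 11.4 and 6.57 CPM in contralateral and 14.4, 13.1, 26.5, 24.2 and 197.6 in peri-infarct libraries. The lower of the pair was 7.46 times the highest other library. Of 14447 genes with at least 1 CPM in both libraries, Col8a1 was the 1 gene at least 1.5 times above all other libraries in both, and the next gene reached 1.46 times. Its rise in vehicle mice, 3.37 (SE 1.04, adjusted p = 0.0394), was 0.80 (adjusted p = 0.0324) without that library and 1.66 (adjusted p = 0.155) with the replicate block, and it was not called when any 1 contralateral library was left out. In HPBCD mice it rose by 2.82 (SE 0.74, adjusted p = 0.00578), or by 1.32 (adjusted p = 0.00409) without replicate 5. The treatment difference was 0.25 (SE 1.12, adjusted p = 0.888) with both, 2.81 (adjusted p = 0.031) without the vehicle library and -1.25 (adjusted p = 0.422) without the HPBCD one. Col8a2 rose from 4.13 ± 5.01 to 30.2 ± 11.6 CPM in HPBCD mice.

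Transmembrane collagens were split. Col23a1 went from 4.92, 8.79, 4.52, 9.39 and 8.17 CPM in vehicle contralateral to 14.9, 15.96, 14.6, 24.5 and 20.9 in vehicle peri-infarct, and from 4.82, 5.40, 8.58, 5.46 and 4.17 in HPBCD contralateral to 35.0, 22.3, 49.0, 42.0 and 28.3 in HPBCD peri-infarct libraries. The regions are separate in both treatments, and it rose by 1.35 (SE 0.23, adjusted p = 0.00348) and 2.69 (SE 0.24, adjusted p = 1.94e-06). Col13a1, present at neuromuscular and other cell junctions, rose by 2.39 in HPBCD mice. Col25a1 did not pass in any comparison: its groups all overlap. It had 47.2, 39.8, 27.2, 54.5 and 40.96 CPM in vehicle contralateral and 54.02, 39.04, 57.6, 51.1 and 36.9 in vehicle peri-infarct replicates 1 to 5. The HPBCD mice had 35.2, 48.1, 51.6, 44.2 and 40.4 CPM in contralateral and 43.9, 87.4, 44.3, 44.6 and 41.8 in peri-infarct libraries. The anchoring collagen Col7a1 and the remaining Col26a1 passed in no comparison. Col28a1 entered the interaction test alone and did not pass (adjusted p = 0.0947), but passed without vehicle peri-infarct replicate 3 (adjusted p = 0.0374). At 2 to 16 counts per library it passed the filter with all 4 groups in 1 fit, where it was lower in peri-infarct tissue of HPBCD mice by edgeR, with a log2 change of -1.05 (adjusted p = 0.0404).

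Chains that share a molecule were compared as a ratio of CPM within each library, which scaling does not touch. The 6 pairs were chosen after values were seen, and 18 exact permutation tests (two-sided, 252 splits, smallest possible p = 0.00794) were adjusted together. The ratio of Col4a1 to Col4a2 was 0.884 ± 0.043 (SD, n = 5) in vehicle and 1.24 ± 0.24 in HPBCD peri-infarct tissue, at the limit of overlap (exact permutation adjusted p = 0.0476). The lowest HPBCD library, replicate 2, had 0.9487 and the highest vehicle library, replicate 5, had 0.9486, a gap below counting error. Between regions this ratio did not pass, at 0.816 ± 0.059 and 0.884 ± 0.043 in vehicle mice (exact permutation adjusted p = 0.0989) and 0.91 ± 0.12 and 1.24 ± 0.24 in HPBCD mice (0.0612). The ratio of Col5a1 to Col5a2 was 8.91 ± 3.37 in HPBCD contralateral and 0.706 ± 0.154 in HPBCD peri-infarct tissue (exact permutation adjusted p = 0.0476), so Col5a1 was the chain with more counts in the first and Col5a2 in the second. Against vehicle peri-infarct tissue, at 3.10 ± 2.20, the HPBCD value was also lower without overlap (exact permutation adjusted p = 0.0476).

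The ratio of Col4a5 to Col4a6 went from 4.15 ± 2.67 to 1.81 ± 0.50 between the vehicle regions and from 2.98 ± 1.009 to 1.55 ± 0.22 between the HPBCD regions, and that of Col6a1 to Col6a2 from 1.81 ± 0.41 to 1.27 ± 0.047 in HPBCD mice (exact permutation adjusted p = 0.0476 for each). Col4a6 had 5 to 32 counts in the vehicle and 9 to 27 in the HPBCD contralateral libraries, so counting error weighs on those ratios. Vehicle contralateral replicate 3, with 5 counts, had a ratio of 8.8. The ratio of the type I chains, Col1a1 to Col1a2, passed in 0 of 3 comparisons, at 0.701 ± 0.083 and 0.607 ± 0.034 in vehicle and 0.648 ± 0.205 and 0.549 ± 0.032 in HPBCD contralateral and peri-infarct libraries. The pair Col9a2 and Col9a3 passed in 0 of 3. The tests between regions treat the 10 libraries as separate, although each animal gave both regions. Paired by animal, an exact test over 5 animals cannot go below p = 0.0625, so no ratio can pass between regions. It gave that value for Col4a1:Col4a2 in both treatments, higher in 5 of 5 animals, and for Col4a5:Col4a6 in vehicle mice and Col5a1:Col5a2 and Col6a1:Col6a2 in HPBCD mice, each lower in 5 of 5. The remaining ratio that passed unpaired between regions, Col4a5:Col4a6 in HPBCD mice, had 0.125 and was lower in 4 of 5. The tests between treatments compare different animals. Unadjusted and unpaired, each ratio that passed stayed under 0.05 in all 10 tests with a library left out.

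**Figure D5:**
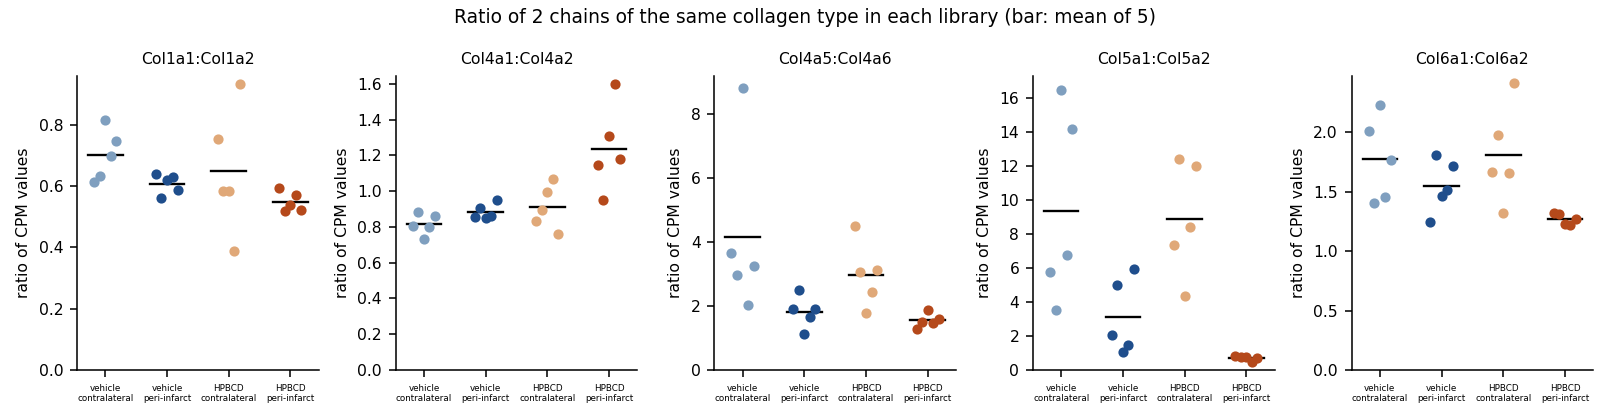
Ratio of CPM values (linear axes from 0) of 2 chains of a collagen type in each library, by group, with a bar at the mean of 5. Col5a1:Col5a2 falls below 1 in the HPBCD peri-infarct libraries and in no other library. Col4a1:Col4a2 exceeds 1 in 4 of the 5 HPBCD peri-infarct libraries and in HPBCD contralateral replicate 4 (1.07).

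Summed per length over all 44 genes, collagen RNA was 80.6 ± 12.03 CPM per kb (SD, n = 5) in vehicle contralateral, 116 ± 35.8 in vehicle peri-infarct, 76.2 ± 11.7 in HPBCD contralateral and 234 ± 64.3 in HPBCD peri-infarct tissue. The fibrillar share of this sum was 19.98% ± 2.65, 22.7% ± 5.48, 19.1% ± 2.48 and 37.2% ± 6.49 in that order. The basement membrane share was 16.6% ± 1.38, 14.3% ± 2.40, 17.8% ± 2.11 and 12.3% ± 0.76, and the share of the other collagens was 63.4% ± 3.75, 62.9% ± 4.58, 63.1% ± 2.23 and 50.5% ± 6.61. These sums use the same transcript lengths, are descriptions and were not tested.

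Promoter windows of 250 bases before the gene start were found in RefSeq (GRCm38.p6) for 35 of the 44 genes, 38 windows in all, of which 18 overlap an annotated exon. The windows of Col3a1 and Col6a5, with the largest fitted rises between HPBCD regions, and of Col24a1, which fell, are shown on the coding strand. Col6a5 entered that test through peri-infarct tissue alone. Capitals mark letters searched on either strand: TATAAA, known as the TATA box, then CCAAT, known by those letters, and the GC box GGGCGG. The 3 windows overlap no annotated exon.
Col3a1, chr1:45311288-45311537, plus strand: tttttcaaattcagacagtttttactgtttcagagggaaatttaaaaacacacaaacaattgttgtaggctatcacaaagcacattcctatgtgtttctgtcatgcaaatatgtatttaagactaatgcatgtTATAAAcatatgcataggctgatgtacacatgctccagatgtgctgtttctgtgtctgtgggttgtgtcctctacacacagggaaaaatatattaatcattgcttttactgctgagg
Col6a5, chr9:105960644-105960893, minus strand: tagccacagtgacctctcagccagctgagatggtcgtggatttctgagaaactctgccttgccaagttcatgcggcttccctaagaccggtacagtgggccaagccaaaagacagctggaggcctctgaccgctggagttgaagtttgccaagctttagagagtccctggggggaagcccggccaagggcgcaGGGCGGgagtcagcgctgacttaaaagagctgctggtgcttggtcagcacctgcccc
Col24a1, chr3:145292222-145292471, plus strand: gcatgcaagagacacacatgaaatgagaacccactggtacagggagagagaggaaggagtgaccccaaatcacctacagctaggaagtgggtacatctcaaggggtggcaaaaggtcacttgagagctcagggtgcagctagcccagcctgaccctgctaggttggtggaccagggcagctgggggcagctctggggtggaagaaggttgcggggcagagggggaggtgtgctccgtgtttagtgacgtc
Col3a1 holds 1 TATAAA, Col6a5 holds 1 GGGCGG and Col24a1 holds none of the 3 motifs in this window. On either strand, TATAAA was found in 13.2% of the 38 collagen windows and in 12.4% of all 32851 windows, CCAAT in 34.2% and 33.8%, and GGGCGG in 57.9% and 32.7%. A match of these letters is a description and not a binding site.

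Collagens are modified, exported, cut and cross-linked by a shared set of enzymes, and 32 such genes were followed. Between regions, 11 of 29 tested rose in vehicle and 24 of 29 in HPBCD mice, 16 of 30 were higher in HPBCD than in vehicle peri-infarct tissue, 0 of 28 differed in contralateral tissue and 9 of 30 had a larger change in HPBCD mice. None was called in the other direction. The shares of all genes called higher were 10.5%, 30.3%, 12.4%, 0% and 5.03% in these comparisons. P4ha3, a subunit of prolyl hydroxylase, rose from 4.25 ± 0.16 to 18.6 ± 8.05 CPM (SD, n = 5) in vehicle and from 3.72 ± 0.56 to 36.2 ± 9.96 in HPBCD mice, log2 changes of 2.14 (adjusted p = 0.00146) and 3.33 (adjusted p = 2.68e-07). Lox, the enzyme that starts cross-links, rose by 1.70 (adjusted p = 0.0401) and 3.75 (adjusted p = 3.83e-06).

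The related Loxl3 rose by 1.02 in vehicle and Loxl2 by 3.06 in HPBCD mice. Loxl1 was higher in HPBCD than in vehicle peri-infarct tissue by 2.02 (adjusted p = 0.0147) and Pcolce, which enhances removal of the procollagen C-propeptide, by 1.95 (adjusted p = 0.0128). Serpinh1, the collagen chaperone HSP47, had an interaction of 1.45 (adjusted p = 0.0177) and means of 15.2, 25.5, 14.1 and 63.5 CPM in vehicle contralateral, vehicle peri-infarct, HPBCD contralateral and HPBCD peri-infarct libraries. Tll1, a procollagen C-proteinase, had an interaction of 1.66.

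Of 10 collagen receptors, 8 were tested, and 3 rose in vehicle mice, 8 rose in HPBCD mice, 7 were higher in HPBCD peri-infarct tissue, 0 differed in contralateral tissue and 5 had a larger change in HPBCD mice, beside the same shares of all genes. Lair1, an inhibitory receptor of immune cells, rose by 1.25 (adjusted p = 0.00348), Ddr1, a receptor tyrosine kinase, by 0.82 and Itgb1, the beta subunit shared by the collagen-binding integrins, by 0.37 in vehicle mice. In HPBCD mice Mrc2, which takes up collagen fragments, rose by 3.20, Ddr2, the receptor for fibrillar collagens on mesenchymal cells, by 2.36 and Itga10 by 2.194. Mrc2, Ddr2 and Itga10 were also higher in HPBCD than in vehicle peri-infarct tissue, by 1.97, 1.80 and 1.56. The interactions of Mrc2, Itga11 and Ddr2 were 2.27, 2.01 and 1.70.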

How the data were processed

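Polyadenylated RNA of 20 brain samples was sequenced as read pairs from stranded libraries. The deposited values are raw counts per Ensembl gene, 1 table per library, made by the authors with Trimmomatic 0.32, STAR 2.5.2b, GRCm38 and htseq-count per the labels. Annotation release and strand option are not given in the sources used here, so counts of overlapping genes are uncertain. Lines that name no gene were left out of totals (4.39 to 9.5% of reads without a feature, 3.94 to 8.03% ambiguous and 16.58 to 24.3% not uniquely aligned, per library). Symbols came from GENCODE M21 (45143 of 46078 genes matched). Gene counts were 14445021 to 22171627 per library, floors cover counting error alone, and p-values measure the spread between the 5 libraries of each group. The main fits between regions and of the interaction treat the 2 regions of a mouse as separate libraries. The replicate block is the alternative that pairs them.

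The test was edgeR's quasi-likelihood test (version 4.0.16, R 4.3.3, TMM factors, filterByExpr), with Benjamini-Hochberg adjustment over all genes at 0.05. SE is the log2 change divided by the square root of F. Each comparison used its 10 libraries and the interaction all 20. The fits of the vehicle regions and of the interaction were first run on simulated counts with known changes and unpaired libraries. That run does not cover the pairing by animal, and no result rests on it. Alternatives were RLE factors, no filter on low counts, DESeq2 1.42.0, all 4 groups in 1 fit, a replicate block, and leaving out each library. Leaving out 3 contralateral libraries, pairing the chain ratios by animal and other gene lengths were added after seeing the data. Per-length levels used the transcript with the longest coding sequence. The collagens, lists and pairs were chosen with earlier results of these data known. Values in each library are given for the 3 most abundant genes of each class per length, the 3 largest called changes of each comparison and the collagens called against the majority, and for Col23a1, chosen with Col8a2, Col12a1 and Col16a1 after values were seen. Pathway genes are the 3 largest called changes of each comparison.

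Regions of the same number share an animal identifier, which pairs them. For the 10 such pairs, the correlation over genes of the deviations from each group's mean averaged 0.137 and exceeded 0.1 in 6.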

Additional observations from a re-analysis of the deposited data

Results flagged for a closer look

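In 12 of 64 groups of 5 libraries (16 collagens in 4 groups), 1 library lay far above the other 4. The groups reuse the same 20 libraries, and the 16 collagens were chosen for level or change, so no chance rate is given. Vehicle contralateral replicate 2, the library of that group with the highest fibroblast and meninges markers, had 8.52 CPM of Col18a1, 6.57 of Col3a1 and 5.51 of Col5a2. HPBCD contralateral replicate 3, highest in its group for those markers and high in choroid plexus markers, had 34.7 CPM of Col1a2 and 1.88 of Col4a6. Vehicle peri-infarct replicate 4, highest in its group for the fibroblast markers, had 28.04 CPM of Col3a1. Vehicle peri-infarct replicate 3 had 72.2 CPM of Col11a2 and 205 of Col8a1, and HPBCD peri-infarct replicate 5 had 198 of Col8a1. HPBCD peri-infarct replicate 2 had 87.4 CPM of Col25a1, vehicle contralateral replicate 5 had 10.9 of Col24a1, and vehicle contralateral replicate 3, the highest of its group in ependymal markers, had 1.57 of Col6a5.

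For 13 collagens the change between regions differed between treatments by the edgeR interaction test, larger in HPBCD mice in each. On the log2 scale the difference was 2.54 for Col1a2, 2.48 for Col1a1, 2.41 for Col5a2 and 1.77 for Col5a3 among the fibrillar genes. It was 1.999 for Col18a1, 1.37 for Col4a5 and 0.82 for Col4a1 in the basement membrane class. Among the others it was 1.96 for Col14a1, 1.61 for Col12a1, 1.46 for Col6a2, 1.33 for Col23a1, 1.29 for Col6a3 and 1.15 for Col6a1. Without the 3 contralateral libraries that stand apart 1 of these 13, Col12a1, was still called.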

How the results depend on the processing

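The number of called collagens stayed within 1.5 times of the reported one under RLE factors, without the filter, under DESeq2 and with all 4 groups in 1 fit, where these apply. Without the contralateral libraries that stand apart it was 8 between vehicle and 32 between HPBCD regions. With 1 library left out it ranged from 6 to 14 between regions of vehicle mice (11 reported) and from 4 to 20 for the interaction (13 reported). The interaction count was 20 without vehicle peri-infarct replicate 3, 8 without vehicle contralateral replicate 3 or HPBCD contralateral replicate 1, 7 without vehicle peri-infarct replicate 5, 6 without vehicle peri-infarct replicate 1, vehicle contralateral replicate 2, HPBCD peri-infarct replicate 4 or HPBCD contralateral replicate 4, 5 without HPBCD contralateral replicate 2, 4 without replicate 3 of HPBCD peri-infarct or replicate 2 of vehicle peri-infarct tissue, and 2 without the 3 contralateral libraries that stand apart. The cause was not tested. DESeq2 called 15 collagens between vehicle regions and 19 for the interaction, and gave no adjusted p for Col8a1 outside contralateral tissue.

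With the replicate block, which is the animal between regions and in the interaction, the counts were 11 and 32 between regions of vehicle and HPBCD mice, and 13 for the interaction. The block ended the calls of Col4a4 and Col8a1 between vehicle regions (Col8a1 at an adjusted p of 0.155) and of Col4a5 and Col6a1 in the interaction. It added Col5a3 and Col6a3 between vehicle regions, Col17a1 between HPBCD regions, and Col3a1 and Col9a3 in the interaction. Between treatments, where the numbers name different animals, it gave 25 in peri-infarct and 0 in contralateral tissue.

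Col10a1 was too shallow to compare, and Col4a3 and Col28a1 passed the filter in fits over all 4 groups alone. With all 4 groups in 1 fit Col28a1 was called lower between HPBCD regions.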
